A study of Mus musculus with 28 samples.

Results

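The first day of control induction was read from 4 of the 28 RNA-seq libraries of the series, chosen by their labels. They are 2 libraries of untreated mouse embryonic fibroblasts (MEF.ctr, called MEF below) and 2 libraries of MEFs on day 1 of OKS reprogramming with no inhibitor (ctr.d1, called day 1). OKS stands for Oct4, Klf4 and Sox2, which the study delivered with retroviruses to MEFs that carry OG2, a reporter in which the Oct4 promoter drives GFP. The labels give the genotype of every library as WT, and source, cell type and protocols are worded alike for both groups. The study infected the cells in 2 rounds and then changed to iCD1, a chemically defined induction medium, in DMSO for the control, whereas it kept MEFs in medium with serum. The labels name iCD1 for the MEFs as well and name no DMSO. The step from MEF to day 1 therefore joins infection, the 3 factors, a possible change of medium and time in culture, and these cannot be told apart here. As a second set, 4 other libraries of the same step were used: MEFs treated with the p38 inhibitor SB203580 (MEF.p38i) and day 1 cells that had received the inhibitor before induction (pre_p38i.d1), 2 libraries each. Nothing in the labels says whether the 2 libraries of a group came from separate cultures. The p-values therefore measure only the spread between libraries of a group, pooled over all 14 groups, which may be technical.

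Fibroblasts are contractile, matrix-making cells. Tension and serum keep their actin genes active through the serum response factor SRF, and their CCN genes through the co-activator YAP and its TEAD partners, while TGF-beta adds to matrix production. Reprogramming to pluripotency is known to begin with loss of the fibroblast programme and a mesenchymal-to-epithelial transition, and the endogenous pluripotency network is known to follow later. Cholesterol and fatty acid synthesis genes are controlled by SREBP factors, which are activated when cells take up little sterol.

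Values are whole numbers per gene and library, read as TPM, a share of all transcripts scaled for gene length, and rounded down by the authors, so they compare genes per length but keep no trace of depth. A value of at least 1 was listed for 12497 and 12559 genes in the MEF libraries and 13444 and 13331 at day 1. Mitochondrially encoded genes took 2.14% and 1.95% of the MEF libraries and 3.06% and 3.16% at day 1. The part of either in the results was not tested. No pair of libraries was identical. The log2 fold changes below are differences of log2(value + 1), day 1 minus MEF, and the adjusted p comes from limma over all genes tested. This scale understates changes of low genes, and no fold is given where a group is listed at 0. The smallest p-value that an exact permutation of 2 against 2 libraries can give is 0.333, so the tests rest on the spread shared across genes.

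Most of the genes tested differed between MEF and day 1. Of 13230 genes tested, 4840 (36.6%) were higher and 2500 (18.9%) were lower at day 1 at an adjusted p under 0.05 (limma, Benjamini-Hochberg). At least 2-fold changes made up 2037 (15.4%) and 640 (4.84%) of the genes tested, in that order. Of these, 142 higher and 20 lower genes stood at exactly 2-fold on the log2(value + 1) scale. A gene that goes from 0 to 1 in both libraries stands there, so rounding adds to these counts. The values of the groups did not overlap for 9158 genes (69.2%). The balance of directions depended on scaling. After quantile normalization 3392 genes (25.6%) were higher and 3751 (28.4%) lower, so the share of higher genes among the calls went from 65.9% to 47.5%, and the median change of all genes went from 0.14 to -0.07. At least 2-fold changes under that scaling numbered 1194 higher (9.02%) and 911 lower (6.89%). Genes listed at 0 in both MEF libraries and at 5 or more in both day 1 libraries numbered 168, whereas 21 genes went the other way.

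**Figure D1:**
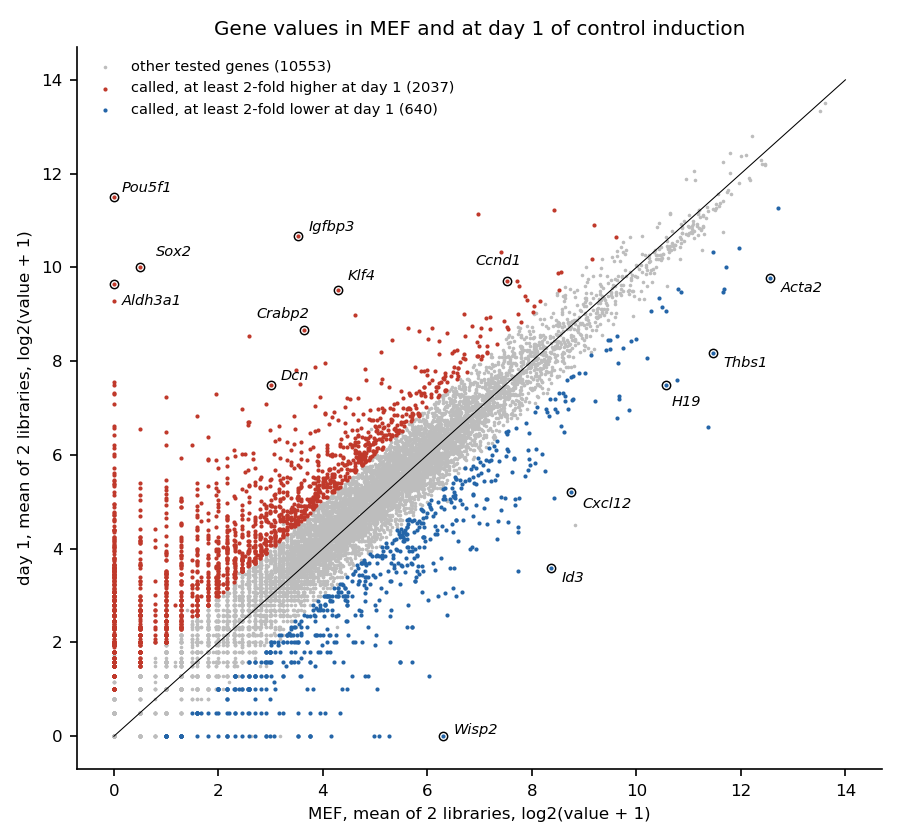
Mean log2(value + 1) of the 2 MEF libraries (x axis) and the 2 day 1 libraries (y axis) for each of the 13230 genes tested, with the line of equal values. Red and blue mark the 2037 higher and 640 lower genes that were called and changed at least 2-fold, and the genes listed at 0 in MEF stand on the left edge with Pou5f1 at the top.

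The 3 delivered factors were high at day 1. Pou5f1, which encodes Oct4, was listed at 0 and 0 in the MEF libraries and at 2996 and 2822 at day 1 (limma adjusted p = 1.11e-30). Sox2, its partner on DNA, stood at 1 and 0 in the MEF libraries and at 1075 and 975 at day 1 (log2 fold change 9.50 ± 0.18 SE, limma adjusted p = 2.60e-19). Klf4, which fibroblasts also express, went from 17 and 20 to 777 and 697, a 39.8-fold rise (log2 fold change 5.24 ± 0.08 SE, limma adjusted p = 1.53e-20). The MEF and day 1 values lay far apart for each factor. Together they took 0.489% and 0.453% of the day 1 libraries. The table holds 1 value per gene, so viral and endogenous transcripts cannot be told apart.

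Beside the factors, the genes that rose most included several tissue-restricted ones. Aldh3a1, an aldehyde dehydrogenase of the cornea, was listed at 0 and 0 in the MEF libraries and at 836 and 775 at day 1 (limma adjusted p = 2.73e-28). Hbb-y, the embryonic beta-like globin, was listed at 0 and 0 in the MEF libraries and at 604 and 632 at day 1 (limma adjusted p = 5.49e-25). Of 6 red cell markers, 5 (among them the adult globin genes Hba-a1, Hba-a2 and Hbb-bt) were at 0 in all 4 libraries and Hbb-bs reached 1 in 1 library. Igfbp3, a secreted binder of insulin-like growth factors, went from 11 and 10 to 1676 and 1574, a 155-fold rise (log2 fold change 7.14 ± 0.06 SE, limma adjusted p = 6.52e-25). Crym, a crystallin-like thyroid hormone binder, Itgb4, the beta chain of the hemidesmosome integrin, and Nefl, the light neurofilament, were listed at 0 in both MEF libraries and reached 193 and 179, 160 and 157 and 158 and 154, in that order. Avil, an actin-severing protein, the myelin and lymphocyte protein gene Mal and Scg5, a neuroendocrine chaperone, likewise went from 0 to 138 and 132, 102 and 93 and 90 and 99. Exons of Itgb4, Avil and Nefl overlap those of genes on the other strand, whose reads could not be separated where the counting ignored strand, and Nefl also shares sequence with Nefm. AY036118, a long noncoding RNA that shares sequence with Gm42418 and so has an uncertain value, was at 0 in both MEF libraries and at 268 and 118 at day 1, libraries that differ more than 2-fold.

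Genes of the contractile apparatus fell as a block. All 17 members of the contractile and SRF list were lower at day 1, 16 of them at least 2-fold, with a median log2 change of -2.13 against 0.14 over all genes. The 17 genes took 2.25% and 2.21% of the MEF libraries and 0.556% and 0.560% of the day 1 libraries. Acta2, smooth muscle actin, stood at 6180 and 5867 in the MEF libraries and at 841 and 901 at day 1, which is 6.92-fold lower (log2 fold change -2.79 ± 0.11 SE, limma adjusted p = 1.83e-14). The 2 values at day 1 lay close together and far below both MEF values. The myosin light chain gene Myl9 went from 847 and 787 to 148 and 144 (log2 fold change -2.48 ± 0.25 SE, limma adjusted p = 5.30e-08). Calponin genes fell alike, Cnn1 from 205 and 200 to 37 and 28 and Cnn2 from 803 and 774 to 113 and 107. Lmod1, a leiomodin that nucleates actin filaments in smooth muscle, was at 38 and 37 in MEF and listed at 0 in both day 1 libraries (limma adjusted p = 3.25e-14). Srf itself went from 73 and 71 to 20 and 20 (log2 fold change -1.80 ± 0.10 SE, limma adjusted p = 1.14e-11), and Vcl, which encodes the focal adhesion protein vinculin, from 422 and 404 to 127 and 125 (log2 fold change -1.70 ± 0.06 SE, limma adjusted p = 2.34e-15).

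Every CCN and YAP list member was also lower. All 11 fell, 7 of them at least 2-fold, with a median of -1.76. Ctgf, the connective tissue growth factor, stood at 1741 and 1746 in the MEF libraries and at 198 and 189 at day 1, a 9.01-fold fall (log2 fold change -3.17 ± 0.07 SE, limma adjusted p = 1.34e-18). Cyr61, its matricellular relative, went from 942 and 921 to 124 and 121 (log2 fold change -2.92 ± 0.06 SE, limma adjusted p = 2.97e-18). Wisp2, another CCN gene, went from 74 and 82 to 0 in both day 1 libraries (limma adjusted p = 1.06e-15). Ankrd1, a cardiac ankyrin repeat gene that responds to stretch, went from 206 and 217 to 21 and 21 (log2 fold change -3.27 ± 0.19 SE, limma adjusted p = 1.20e-11), and the angiomotin-like gene Amotl2 from 255 and 238 to 61 and 57 (log2 fold change -2.04 ± 0.08 SE, limma adjusted p = 3.54e-14). Lats2, a kinase that restrains YAP, was the least changed of the 11, from 56 and 52 to 47 and 43 (log2 fold change -0.26 ± 0.08 SE, limma adjusted p = 0.0105).

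The promoters of these lists were searched for the letters that SRF and TEAD proteins are known to bind. RefSeq windows (GRCm38.p6) within 1000 bases of the gene's start in the table were found for 16490 genes, and the 250 bases before the start were read on both strands. The CArG box, 10 letters with 6 A or T between CC and GG, stood in 1.29% of all windows and in 4 of 14 contractile windows (Cnn2, Myl9, Vcl and Srf). GGAATG stood in 11.8% of all windows, in 6 of 14 contractile windows and in the 3 CCN and YAP windows found (Ankrd1, Ajuba and Axl). A match is a description of the letters and not a bound site. The Vcl stretch is shown because it holds both motifs and the Ankrd1 stretch because it holds GGAATG 2 times, with the matches on either strand in capitals. They lie at chr14:20929148-20929397 on the plus strand and chr19:36119845-36120094 on the minus strand.
Vcl: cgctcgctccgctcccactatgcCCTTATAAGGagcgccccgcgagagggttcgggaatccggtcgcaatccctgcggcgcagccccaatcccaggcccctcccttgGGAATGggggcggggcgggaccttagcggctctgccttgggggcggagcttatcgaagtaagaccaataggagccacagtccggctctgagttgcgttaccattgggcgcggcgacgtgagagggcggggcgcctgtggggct
Ankrd1: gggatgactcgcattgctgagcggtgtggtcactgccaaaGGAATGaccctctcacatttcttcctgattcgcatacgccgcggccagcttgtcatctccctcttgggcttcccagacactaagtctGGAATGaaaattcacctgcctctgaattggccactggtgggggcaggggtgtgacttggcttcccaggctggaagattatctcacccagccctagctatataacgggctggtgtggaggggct

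TGF-beta ligands, receptors and targets were mostly lower. Of 14 tested, 12 fell, 6 of them at least 2-fold, and 1 rose. Of all genes, 18.9% were lower, 4.84% at least 2-fold lower, and 36.6% higher. Among ligands, Tgfb2 went from 34 and 42 to 9 and 9 (log2 fold change -1.96 ± 0.15 SE, limma adjusted p = 5.52e-10), Tgfb3 from 122 and 120 to 31 and 28 and Inhba, the activin A chain, from 306 and 299 to 49 and 50 (log2 fold change -2.59 ± 0.22 SE, limma adjusted p = 3.79e-09). Ltbp2, which belongs to a family of TGF-beta binding matrix proteins, went from 89 and 89 to 20 and 19 (log2 fold change -2.13 ± 0.24 SE, limma adjusted p = 1.93e-07). For these 4 genes the day 1 values lay below every MEF value, while the groups did not overlap for 69.2% of all genes tested. The type II receptor gene Tgfbr2 was the member that rose, from 39 and 38 to 85 and 82 (log2 fold change 1.10 ± 0.06 SE, limma adjusted p = 8.77e-12). After quantile normalization it was no longer past 2-fold.

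BMP and Id genes were lower in 10 of 13 tested, 7 of them at least 2-fold, and higher in 2. The shares over all genes were 18.9% lower and 36.6% higher. Id3, an inhibitor of basic helix-loop-helix factors and a direct BMP target, stood at 321 and 341 in the MEF libraries and at 11 and 11 at day 1, a 30.1-fold fall (log2 fold change -4.79 ± 0.10 SE, limma adjusted p = 1.61e-18). Id1 went from 172 and 168 to 25 and 30, and the inhibitory Smad gene Smad6 from 24 and 22 to 3 and 3. Atoh8, a helix-loop-helix factor gene, went from 20 and 14 to 0 in both day 1 libraries. The ligand gene Bmp2 went the other way, from 1 and 0 to 9 and 8 (log2 fold change 2.75 ± 0.27 SE, limma adjusted p = 4.01e-08).

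Immediate-early genes, which serum and stress switch on within minutes, were lower in 11 of 15 tested and higher in none. Egr1 went from 76 and 68 to 21 and 17 (log2 fold change -1.87 ± 0.28 SE, limma adjusted p = 8.41e-06), Fosl2 from 79 and 75 to 22 and 21 (log2 fold change -1.79 ± 0.08 SE, limma adjusted p = 4.41e-13) and Junb from 175 and 189 to 71 and 67 (log2 fold change -1.39 ± 0.11 SE, limma adjusted p = 7.62e-10). Myc, the reprogramming factor left out of the OKS set, went from 113 and 120 to 35 and 35 (log2 fold change -1.71 ± 0.13 SE, limma adjusted p = 4.74e-10). Feedback genes of FGF and ERK signalling split. Of 16 tested, 8 rose and 6 fell, with Etv5 (18 and 19 in MEF and 50 and 49 at day 1) and Spry4 (15 and 15 in MEF and 46 and 39 at day 1) higher and Dusp5 (92 and 94 in MEF and 24 and 23 at day 1) and Spry1 (21 and 21 in MEF and 6 and 8 at day 1) lower. Wnt list members rose in 6 of 13 and fell in 1. Beside the counts of these lists, 36.6% of all genes were higher and 18.9% lower. Axin2, a feedback gene of beta-catenin signalling, was listed at 0 and 0 in the MEF libraries and at 7 and 7 at day 1 (limma adjusted p = 2.31e-11). After quantile normalization 5 Wnt list members were higher and 1 lower.

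Matrix genes fell unevenly. Of 18 collagen chains, 14 fell, 9 of them at least 2-fold, and 2 rose by less. Over all genes 18.9% were lower and 36.6% higher. Col1a1, the main chain of type I collagen, stood at 4164 and 3867 in the MEF libraries and at 1392 and 1318 at day 1 (log2 fold change -1.57 ± 0.08 SE, limma adjusted p = 3.09e-12). Col5a1, of type V collagen, went from 590 and 585 to 146 and 136 (log2 fold change -2.05 ± 0.09 SE, limma adjusted p = 8.62e-14), and Col12a1 from 380 and 397 to 90 and 87 (log2 fold change -2.12 ± 0.15 SE, limma adjusted p = 2.11e-10). Of 23 other matrix and matricellular genes tested, 14 fell and 4 rose. Thbs1, which encodes thrombospondin 1, stood at 2839 and 2796 in the MEF libraries and at 290 and 289 at day 1, a 9.73-fold fall (log2 fold change -3.28 ± 0.06 SE, limma adjusted p = 3.48e-19). The crosslinking enzyme genes Lox and Loxl1 went from 1043 and 996 to 359 and 349 and from 279 and 255 to 57 and 54. Elastin (Eln), at 11 and 10 in MEF, was listed at 0 at day 1. The small proteoglycans moved the other way. Dcn, decorin, rose from 7 and 7 to 177 and 182 (log2 fold change 4.50 ± 0.08 SE, limma adjusted p = 6.63e-20), and Lum, lumican, was listed at 0 and 0 in the MEF libraries and at 19 and 21 at day 1 (limma adjusted p = 2.17e-13). Sparc, osteonectin, stayed at 2403 and 2355 against 2361 and 2330 in MEF and was not called (log2 fold change 0.02 ± 0.04 SE, limma adjusted p = 0.691).

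Of 18 matrix proteases and inhibitors, 6 rose and 6 fell, where 36.6% of all genes were higher and 18.9% lower. Stromelysins rose, Mmp3 from 2 and 1 to 27 and 37 (log2 fold change 3.74 ± 0.24 SE, limma adjusted p = 7.58e-11) and Mmp10 from 2 and 1 to 15 and 12, while Adamts5, an aggrecanase, went from 16 and 18 to 5 and 5 (log2 fold change -1.58 ± 0.17 SE, limma adjusted p = 1.45e-07).

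**Figure D2:**
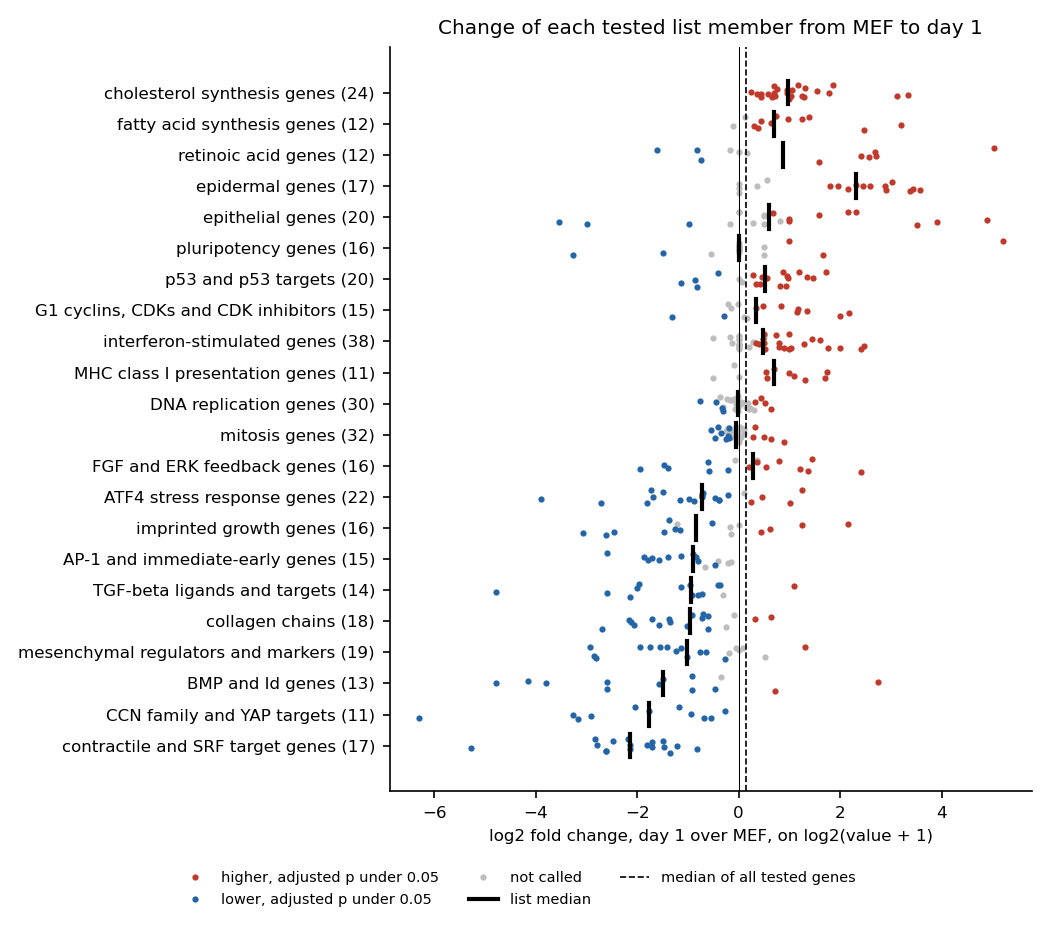
Log2 fold change from MEF to day 1 (x axis, on log2(value + 1)) of every tested member of 22 gene lists (rows, number tested in brackets), 1 point per gene, red and blue where the gene was called higher or lower at an adjusted p under 0.05. Black bars are list medians and the dashed line is the median of all genes, 0.14. All 17 contractile genes lie left of 0 and all 24 cholesterol genes lie right of it.

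Most mesenchymal genes fell, and Twist1 went against them. Of 19 mesenchymal regulators and markers tested, 13 fell, 10 of them at least 2-fold, and 1 rose. Among all genes 18.9% were lower and 36.6% higher. Snai1, a repressor of Cdh1, went from 88 and 83 to 11 and 11 (log2 fold change -2.85 ± 0.21 SE, limma adjusted p = 6.80e-10). The platelet-derived growth factor receptor gene Pdgfrb went from 121 and 121 to 15 and 15 (log2 fold change -2.93 ± 0.12 SE, limma adjusted p = 8.99e-14), Thy1, a surface glycoprotein of fibroblasts, from 379 and 377 to 98 and 97 (log2 fold change -1.94 ± 0.11 SE, limma adjusted p = 9.06e-12), and the homeobox gene Prrx2 from 111 and 111 to 17 and 13 (log2 fold change -2.82 ± 0.24 SE, limma adjusted p = 3.70e-09). Twist1, another regulator of mesenchymal identity, was the gene that rose, from 74 and 74 to 189 and 179 (log2 fold change 1.30 ± 0.06 SE, limma adjusted p = 6.02e-13). Zeb1, a repressor of epithelial genes, stood at 30 and 26 in MEF and 19 and 16 at day 1 (log2 fold change -0.65 ± 0.11 SE, limma adjusted p = 3.88e-05).

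Epithelial genes appeared at low levels. Of 20 tested, 9 rose and 3 fell, against 36.6% and 18.9% of all genes, and 12 of the 20 had a group listed at 0. Cdh1, the E-cadherin gene whose gain marks the mesenchymal-to-epithelial transition, was listed at 0 and 0 in the MEF libraries and at 10 and 11 at day 1 (limma adjusted p = 6.62e-17). Perp, a desmosomal protein and p53 target, rose from 17 and 14 to 251 and 243 (log2 fold change 3.92 ± 0.08 SE, limma adjusted p = 3.13e-19). Dsp, desmoplakin, went from 1 and 0 to 45 and 38 (log2 fold change 4.90 ± 0.20 SE, limma adjusted p = 3.63e-14). Krt8, the simple-epithelium keratin, was listed at 0 and 0 in the MEF libraries and at 2 and 2 at day 1, and Epcam, an early epithelial surface marker, at 0 and 0 in the MEF libraries and at 1 and 1 at day 1. Cldn3, of tight junctions, reached 1 in 1 day 1 library and was not called (limma adjusted p = 0.336). Krt7 and Cdh3 went the other way, from 8 and 6 and from 15 and 16 in MEF to 0 and 0 and 1 and 0 at day 1. With quantile normalization 7 rose and 3 fell.

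Epidermal genes rose from low levels. Of 17 tested, 12 rose, all at least 2-fold, against 36.6% of all genes higher and 15.4% at least 2-fold higher. None fell, but 13 of the 17 had a group listed at 0, and the values stayed low. A gene listed at 0 in both MEF libraries could not fall on this scale. The filter took the mean over all 28 libraries, so such a gene passed it only through other groups. Krt6a, a keratin of stressed epidermis, was listed at 0 and 0 in the MEF libraries and at 11 and 11 at day 1 (limma adjusted p = 1.17e-14). Krt6a shares sequence with Krt6b, so its value may include reads of that gene. Crct1, a gene of the cornified envelope, went from 5 and 6 to 57 and 47 (log2 fold change 3.03 ± 0.33 SE, limma adjusted p = 1.93e-07). The transglutaminase Tgm3 and the keratinocyte genes Dmkn and Cnfn were at 0 in MEF and reached 7 and 6, 11 and 8 and 12 and 8. Krt5 and Trp63, which define basal keratinocytes, were at 0 in all 4 libraries.

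Most of the pluripotency network was listed at 0 at day 1. Of 25 list members, 17 were at 0 in all 4 libraries, among them Nanog, Esrrb, Dppa5a, Dppa3 and Sall4. Zfp42, a marker of naive cells, reached 1 in 1 day 1 library (limma adjusted p = 0.152). L1td1, an RNA-binding protein of pluripotent cells, was listed at 0 and 0 in the MEF libraries and at 38 and 34 at day 1 (limma adjusted p = 5.78e-20). Of 16 tested, 3 rose (L1td1, Tdh and Nr0b1, the last of which went from 0 to 1 in both libraries) and 2 fell. Those were Klf2 (23 and 22 in MEF and 2 and 1 at day 1; log2 fold change -3.26 ± 0.16 SE, limma adjusted p = 8.43e-13) and Klf5 (32 and 25 in MEF and 10 and 9 at day 1; log2 fold change -1.48 ± 0.22 SE, limma adjusted p = 1.11e-05), relatives of Klf4. After quantile normalization 2 rose and 6 fell, where 25.6% of all genes were higher and 28.4% lower. Without that scaling the shares of all genes were 36.6% and 18.9%. Quantile normalization gave Nanog, at 0 in all 4 libraries, a change of -0.49, so falls under it can come from values of 0 alone. The number that rose at least 2-fold also depended on the second day 1 library.

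**Figure D3:**
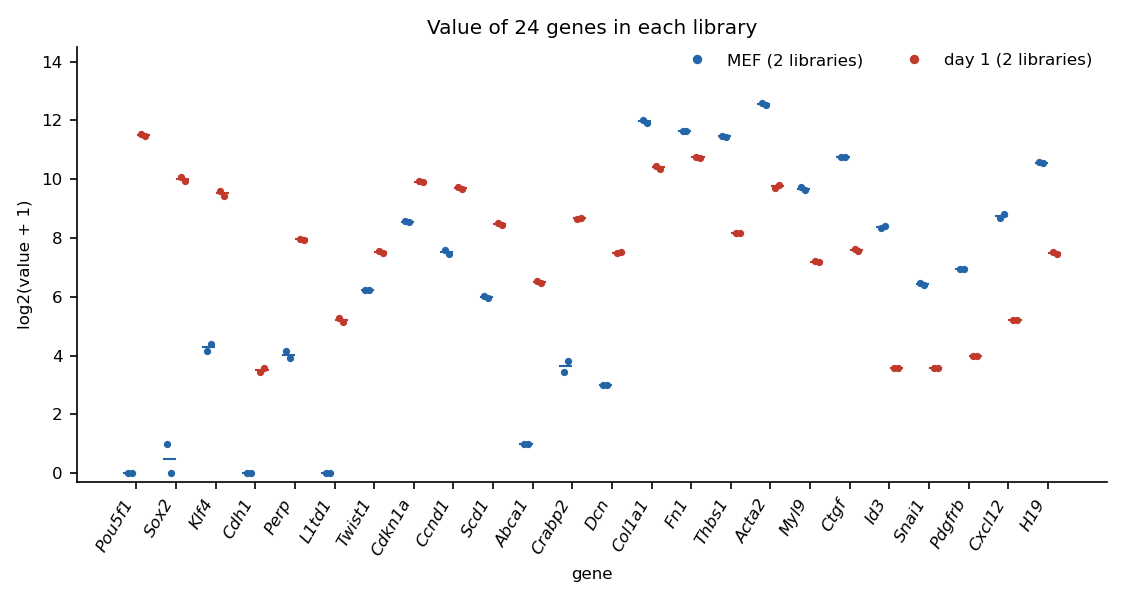
Log2(value + 1) (y axis) of 24 genes in each of the 2 MEF libraries (blue) and the 2 day 1 libraries (red), with bars at the group means. Pou5f1, Cdh1 and L1td1 are listed at 0 in MEF and Abca1 at 1 in both. For every gene shown the 2 groups do not overlap, as for 69.2% of all genes tested.

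Lipid synthesis genes rose together. All 24 cholesterol synthesis and uptake genes tested were higher at day 1, 11 of them at least 2-fold, with a median log2 change of 0.98, and 23 were higher after quantile normalization. Their summed value went from 0.154% and 0.155% of the MEF libraries to 0.302% and 0.293% at day 1. Tm7sf2, a sterol reductase, went from 3 and 7 to 51 and 46 (log2 fold change 3.13 ± 0.20 SE, limma adjusted p = 5.79e-11) and Dhcr7, which makes cholesterol in the last step, from 16 and 17 to 66 and 60 (log2 fold change 1.87 ± 0.07 SE, limma adjusted p = 1.11e-14). Nsdhl, a sterol dehydrogenase, rose from 36 and 34 to 121 and 124 (log2 fold change 1.78 ± 0.08 SE, limma adjusted p = 2.90e-13). Hmgcs1, a synthase early in the pathway, went from 99 and 106 to 146 and 135 (log2 fold change 0.45 ± 0.09 SE, limma adjusted p = 2.37e-04).

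Fatty acid synthesis genes rose in 10 of 12 and fell in none, where 36.6% of all genes were higher and 18.9% lower. Scd1, a fatty acid desaturase, went from 65 and 62 to 361 and 349 (log2 fold change 2.46 ± 0.07 SE, limma adjusted p = 1.40e-16), and its near-identical relative Scd2, whose reads it may share, from 365 and 353 to 966 and 914 (log2 fold change 1.39 ± 0.06 SE, limma adjusted p = 3.49e-14). Acss2, which makes acetyl-CoA from acetate, stood at 4 and 2 in the MEF libraries and at 34 and 35 at day 1 (log2 fold change 3.20 ± 0.16 SE, limma adjusted p = 1.79e-12). Abca1, the cholesterol exporter that LXR receptors induce, rose from 1 and 1 to 91 and 87 (log2 fold change 5.49 ± 0.08 SE, limma adjusted p = 2.88e-21), while Apoe, another LXR gene, stood at 39 and 41 in MEF and 38 and 38 at day 1 and was not called (log2 fold change -0.07 ± 0.10 SE, limma adjusted p = 0.585). Of the 6 efflux genes 4 rose, and with quantile normalization 2 did. Abcg1, called at 0 and 1 in MEF and 2 and 3 at day 1, lost its call without the second day 1 library (limma adjusted p = 0.0588) or the first MEF library (0.130).

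The same promoter windows were searched for CCAAT, which NF-Y binds beside SREBP at sterol genes, and for TCACNCCAC, a form of the sterol element. CCAAT stood in 35.7% of all windows and in 15 of the 16 cholesterol windows found, and also in 9 of 14 contractile windows and 2 of 3 CCN and YAP windows. TCACNCCAC stood in 1.11% of all windows and in Hmgcs1 alone among the 16. Hmgcs1 is shown because it holds both, at chr13:119690101-119690350 on the plus strand, and Nsdhl, one of the genes that rose more, because it holds CCAAT 2 times and TCACNCCAC not at all, at chrX:72918271-72918520 on the plus strand. Capitals mark the matches on either strand.
Hmgcs1: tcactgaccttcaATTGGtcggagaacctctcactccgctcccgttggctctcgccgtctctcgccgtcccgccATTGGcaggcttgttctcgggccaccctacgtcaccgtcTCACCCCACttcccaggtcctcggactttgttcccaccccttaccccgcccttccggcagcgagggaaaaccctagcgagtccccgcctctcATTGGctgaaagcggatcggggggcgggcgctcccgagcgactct
Nsdhl: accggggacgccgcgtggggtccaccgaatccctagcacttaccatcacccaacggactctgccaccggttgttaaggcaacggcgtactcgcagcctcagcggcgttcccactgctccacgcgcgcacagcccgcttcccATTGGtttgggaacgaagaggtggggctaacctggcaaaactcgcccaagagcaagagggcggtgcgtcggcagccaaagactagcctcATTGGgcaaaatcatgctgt

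Most p53 targets rose. Of 20 genes in the p53 list, 14 rose and 4 fell, where 36.6% of all genes were higher and 18.9% lower. The share that fell was near that of all genes. At least 2-fold rises numbered 4, where 15.4% of all genes rose that far. Cdkn1a, the p21 inhibitor and a main p53 target, stood at 384 and 370 in the MEF libraries and at 971 and 950 at day 1, a 2.55-fold rise (log2 fold change 1.35 ± 0.04 SE, limma adjusted p = 1.41e-15). Mdm2, which degrades p53, went from 121 and 132 to 254 and 238 (log2 fold change 0.95 ± 0.07 SE, limma adjusted p = 6.74e-10), and Trp53inp1 from 9 and 13 to 39 and 37 (log2 fold change 1.72 ± 0.11 SE, limma adjusted p = 7.58e-11). Trp53 itself was lower, at 219 and 221 in MEF and 174 and 158 at day 1 (log2 fold change -0.41 ± 0.07 SE, limma adjusted p = 2.61e-05), as were the targets Plk2 (257 and 272 in MEF and 127 and 113 at day 1) and Bbc3 (14 and 16 in MEF and 8 and 8 at day 1). Cdkn2a, the Ink4a/Arf locus, went from 90 and 97 to 213 and 213 (log2 fold change 1.18 ± 0.06 SE, limma adjusted p = 3.11e-12). The p53 list members that rose at least 2-fold were 4, and 7 without the second day 1 library.

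Among G1 regulators, Ccnd1, the growth factor-driven D cyclin, rose from 190 and 175 to 848 and 815 (log2 fold change 2.18 ± 0.04 SE, limma adjusted p = 3.08e-19), with Ccnd3 (188 and 184 in MEF and 412 and 413 at day 1) and Cdk6 (6 and 7 in MEF and 28 and 30 at day 1). Cdkn1b, which encodes p27, went from 32 and 36 to 13 and 13 (log2 fold change -1.32 ± 0.11 SE, limma adjusted p = 2.78e-09). Of 15 tested, 8 rose and 2 fell. Of 30 DNA replication genes 4 rose and 4 fell, and of 32 mitosis genes 5 rose and 8 fell, beside 36.6% higher and 18.9% lower of all genes. After quantile normalization 8 replication genes, 1 of them by at least 2-fold, and 13 mitosis genes fell, and 3 of each rose. Mcm4 stood at 71 and 72 in MEF and 71 and 72 at day 1, Rrm2 at 246 and 247 in MEF and 247 and 238 at day 1 and Cdk1 at 222 and 255 in MEF and 234 and 254 at day 1. For these 3 genes the values of the groups overlapped.

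Interferon-stimulated genes were low in both groups. Of 38 tested, 20 rose (36.6% of all genes did), 10 of them at least 2-fold, and none fell. However, 17 had a group listed at 0 and 9 were at 0 in all 4 libraries. A gene at 0 in both MEF libraries could not fall on this scale. After quantile normalization 10 rose, a share near the 25.6% of all genes, 4 of them at least 2-fold, and 5 fell. Under that scaling genes at 0 in all 4 libraries can get a negative change. Xaf1 went from 4 and 3 to 26 and 22 (log2 fold change 2.48 ± 0.18 SE, limma adjusted p = 2.76e-10), Irf7, an amplifier of interferon production, from 2 and 1 to 6 and 7 (log2 fold change 1.61 ± 0.16 SE, limma adjusted p = 4.87e-08), and Zbp1, a sensor of nucleic acids, was at 0 in MEF and 3 and 6 at day 1. Mx1, Mx2, Oas2, Oas3 and Rsad2 were at 0 in all 4 libraries. Ifnb1, Ifna4 and Ifng were listed at 0 as well. Among sensors, Mavs went from 20 and 19 to 56 and 56 (log2 fold change 1.48 ± 0.08 SE, limma adjusted p = 1.68e-12) and Tlr3 from 0 and 1 to 7 and 5 (log2 fold change 2.29 ± 0.31 SE, limma adjusted p = 2.91e-06). Of 7 inducers tested 3 rose, a share near the 36.6% of all genes. Irf1 fell, at 9 and 14 in MEF and 8 and 7 at day 1 (log2 fold change -0.53 ± 0.19 SE, limma adjusted p = 0.0258). Irf1 lost its call without the second MEF library (-0.24, limma adjusted p = 0.386) or the second day 1 library (-0.44, limma adjusted p = 0.139). Antigen presentation genes rose in 8 of 11, led by the class I heavy chains H2-K1 (24 and 23 in MEF and 80 and 83 at day 1; log2 fold change 1.75 ± 0.07 SE, limma adjusted p = 4.70e-14) and H2-D1 (41 and 42 in MEF and 140 and 135 at day 1; log2 fold change 1.70 ± 0.06 SE, limma adjusted p = 1.98e-15), the second of which shares sequence with H2-Q7. Without the second MEF library 3 of the 11 rose at least 2-fold in place of 5. After quantile normalization 6 rose and 2 fell.

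Secreted signals of fibroblasts went both ways. Of 18 cytokines, chemokines and prostaglandin enzymes tested, 7 rose and 7 fell, where 36.6% of all genes were higher and 18.9% lower. The share that rose was thus near that of all genes. After quantile normalization 5 rose and 7 fell. Cxcl12, the ligand of CXCR4, went from 413 and 451 to 36 and 36, a 12.0-fold fall (log2 fold change -3.55 ± 0.24 SE, limma adjusted p = 1.39e-10). Csf1, the macrophage growth factor, went from 255 and 241 to 57 and 51 (log2 fold change -2.18 ± 0.07 SE, limma adjusted p = 1.14e-15), and Ptgs2, the inducible cyclooxygenase, from 269 and 279 to 133 and 125 (log2 fold change -1.08 ± 0.10 SE, limma adjusted p = 7.51e-09). Ccl7, a monocyte chemokine, rose from 65 and 61 to 205 and 210 (log2 fold change 1.70 ± 0.07 SE, limma adjusted p = 4.59e-14). The members that rose at least 2-fold were 5, and 3 without the first day 1 library or the second MEF library. Il11, called lower at 18 and 25 in MEF and 8 and 7 at day 1 (log2 fold change -1.39 ± 0.50 SE, limma adjusted p = 0.0228), lost its call without the first day 1 (limma adjusted p = 0.0602), second day 1 (0.0942) or second MEF library (0.136).

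Amino acid stress genes were lowered. Of 22 ATF4 response genes 17 fell and 4 rose. Trib3, a pseudokinase that ATF4 induces, went from 41 and 46 to 2 and 2 (log2 fold change -3.89 ± 0.28 SE, limma adjusted p = 4.13e-10), Mthfd2, of mitochondrial folate metabolism, from 116 and 117 to 36 and 33 (log2 fold change -1.73 ± 0.14 SE, limma adjusted p = 1.37e-09) and the amino acid transporter gene Slc7a5 from 148 and 136 to 51 and 49 (log2 fold change -1.49 ± 0.09 SE, limma adjusted p = 2.20e-11). Retinoic acid genes rose in 6 of 12, all at least 2-fold, and fell in 3. Of all genes, 36.6% were higher, 15.4% at least 2-fold higher and 18.9% lower. Crabp2, which carries retinoic acid to the nucleus, went from 10 and 13 to 404 and 410, a 35.4-fold rise (log2 fold change 5.04 ± 0.08 SE, limma adjusted p = 2.13e-20), whereas its relative Crabp1 went from 445 and 438 to 131 and 160 (log2 fold change -1.60 ± 0.10 SE, limma adjusted p = 1.92e-11).

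Imprinted growth genes were lower in 8 of 16 tested and higher in 4, against 18.9% lower and 36.6% higher of all genes. H19, a maternally expressed noncoding RNA, stood at 1540 and 1497 in the MEF libraries and at 184 and 175 at day 1, an 8.46-fold fall (log2 fold change -3.07 ± 0.07 SE, limma adjusted p = 4.34e-18). Its neighbour Igf2 went from 1888 and 1790 to 714 and 703 (log2 fold change -1.37 ± 0.04 SE, limma adjusted p = 1.19e-15). Dlk1 and Meg3, of a second imprinted cluster, went from 74 and 78 to 13 and 13 and from 57 and 86 to 14 and 8, and Mest rose from 31 and 36 to 85 and 76 (log2 fold change 1.24 ± 0.09 SE, limma adjusted p = 1.65e-10).

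The other genes that fell most were scattered in function. Foxs1, a forkhead gene of mesenchyme, and Gjb2, the connexin 26 gene, were listed at 0 in both day 1 libraries, from 34 and 31 and 32 and 29 in MEF. Lrrc17 went from 65 and 64 to 2 and 1, the sphingosine 1-phosphate receptor gene S1pr3 from 54 and 49 to 2 and 2, the matrix modulator Smoc2 from 33 and 31 to 1 and 1 and Crispld2 from 42 and 45 to 2 and 2. Gm7336 is a Gapdh-like pseudogene with many near-identical copies. It was at 188 and 242 in MEF and 0 and 133 at day 1 and called lower (limma adjusted p = 0.0279), but without the first day 1 library its change was -0.68 (limma adjusted p = 0.728), and the call was also lost without either MEF library.

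The label of fibroblast was checked against markers. Vim, the mesenchymal intermediate filament, was at 5943 and 5347 in MEF and 4720 and 4640 at day 1 and Col1a2 at 2492 and 2549 in MEF and 1731 and 1611 at day 1, high in both groups. Of 10 fibroblast markers 7 fell and 3 rose (Dcn, Lum and Col3a1), the last of which lost its call without the first MEF library (0.22, limma adjusted p = 0.0525). The 16 macrophage markers summed to 366 and 347 in MEF and 319 and 308 at day 1. Of 14 tested, 5 fell (the complement genes C1qa, C1qb and C1qc, Csf1r and Mrc1) and 3 rose, Marco among them. Of all genes, 18.9% were lower and 36.6% higher. The log2 fold change of Marco was 2.36 to 6.24 over the alternative settings, and it was called in each. Lyz2 stood at 154 and 152 in MEF and 171 and 161 at day 1. Csf1r, the receptor of the growth factor encoded by Csf1, went from 15 and 13 to 2 and 3 (log2 fold change -2.11 ± 0.32 SE, limma adjusted p = 1.33e-05). In bulk libraries fewer cells of a type and less RNA per cell cannot be told apart. The part of macrophages in the changes of immune genes was not tested.

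The defining markers of most other cell types were at or near 0. The 8 endothelial markers summed to 3 and 2 in MEF and 27 and 29 at day 1, where Tek, an angiopoietin receptor, gave 18 and 17 and Pecam1, Tie1, Cldn5 and Emcn were at 0. Only 3 of the 8 passed the filter on low values (Tek, Kdr and Esam). Kdr was at 2 and 2 in MEF and 6 and 6 at day 1 and Esam at 1 and 0 in MEF and 2 and 5 at day 1, and the call of Esam was lost without the second library of either group. Skeletal muscle markers summed to 195 and 195 in MEF and 44 and 43 at day 1, most of it from Acta1 (176 and 180 in MEF and 33 and 33 at day 1), with Myod1, Myog, Myh3, Ckm and Actc1 at 0. Tnnt1, 1 of 3 members that passed the filter, was at 1 and 0 in MEF and 7 and 7 at day 1. Neural and neural crest markers summed to 61 and 65 in MEF and 274 and 257 at day 1. Tubb3, a tubulin of neurons, accounted for most of that, from 52 and 55 to 243 and 222 (log2 fold change 2.10 ± 0.11 SE, limma adjusted p = 4.42e-12), while Elavl3 and Dcx were at 0. Of the 6 members, 3 passed the filter.

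The first-day levels stood at different points of the 7-day course. These are levels only, since the later days share the day 1 and MEF groups with the comparison above. Contractile genes, at 0.556% and 0.560% of the library at day 1, were at 0.210% and 0.208% by day 3 and 0.155% and 0.163% by day 7. Cholesterol genes were highest at day 1, with 0.213% and 0.211% after 3 days and 0.229% and 0.234% after 7. Interferon-stimulated genes took 0.0165% and 0.0165% of the MEF libraries, 0.0265% and 0.0295% at day 1 and 0.371% and 0.449% on day 3. Pluripotency genes took 0.00665% and 0.00574% in MEF, 0.00655% and 0.00524% at day 1, then 0.0257% and 0.0251% by day 3 and 0.0692% and 0.0703% on day 7. Klf2 and Klf5 made up most of the MEF sum (66 and 57), and L1td1 made up most of the day 1 sum (65 and 52). The near-equal shares of MEF and day 1 thus come from different members. Cdh1 reached 33 and 30 on day 3, then 159 and 151 on day 7, and Nanog 0 and 0 and 12 and 16. Twist1, higher at day 1, was at 155 and 144 by the third day. Tubb3, also higher at day 1, was at 42 and 41 on day 3.

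**Figure D4:**
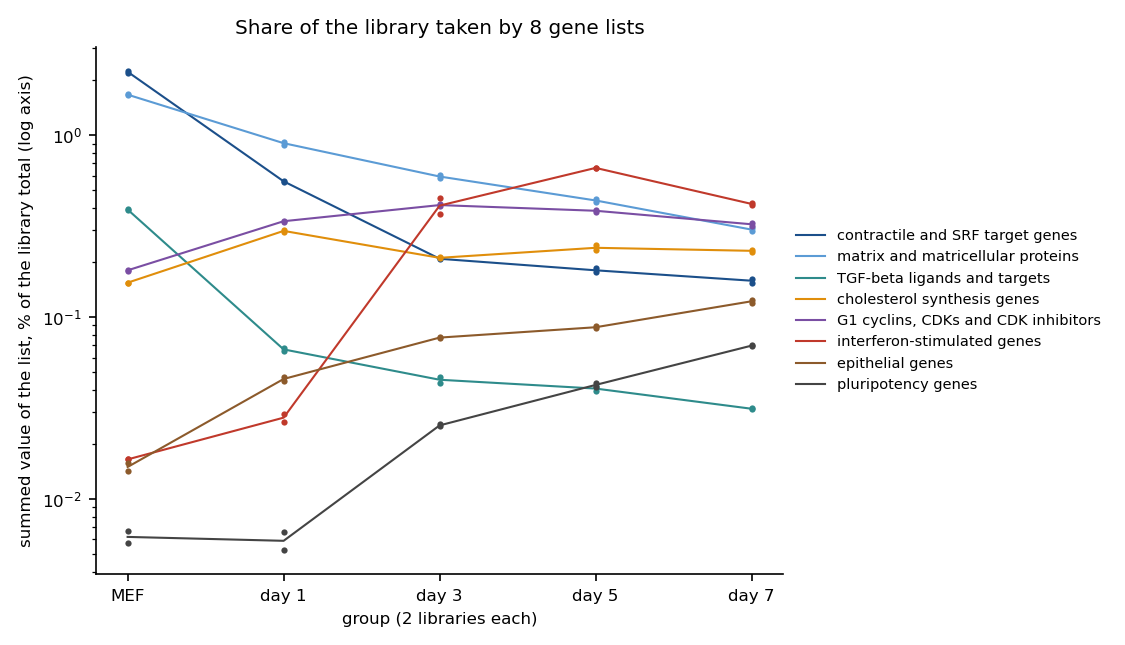
Summed value of 8 gene lists as a percentage of the library total (y axis, log scale) in MEF and on days 1, 3, 5 and 7 of control induction, with points for the 2 libraries of each group and lines through their means. Contractile genes fall and epithelial genes rise from MEF on, whereas interferon-stimulated and pluripotency genes rise steeply between day 1 and day 3.

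The step was then measured in the second set of 4 libraries, which shares none with the first, although 1 fit gave the spread for both. From inhibitor-treated MEF to day 1 after the inhibitor, 4672 genes (35.3%) were higher and 2735 (20.7%) lower, and 2067 (15.6%) and 765 (5.78%) by at least 2-fold. Of the 2037 genes at least 2-fold higher in the control step, 1622 were so in the second set, which is 79.6% of the first list and 78.5% of the second. Of the 640 genes lower, 480 were lower in both, 75.0% of the first and 62.7% of the second. At least 2-fold calls in opposite directions numbered 3 and 2. All 17 contractile genes fell again, with a median of -2.33, and all 24 cholesterol genes rose again, with a median of 1.19. CCN and YAP genes fell in 10 of 11, TGF-beta genes fell in 10 of 14 and rose in 1, and immediate-early genes fell in 9 of 15 and rose in 1. Of the 18 collagen chains 10 fell and 4 rose. Mitosis genes fell in 23 of 32 and rose in 2, where 8 had fallen and 5 risen in the control step. The direct test of the difference between the 2 changes called 5 of the 32, where it called 7.95% of all genes. The mean log2(value + 1) of this list was 5.91 in untreated and 6.18 in inhibitor-treated MEF. At day 1 it was 5.88 in the control and 5.86 after the inhibitor. Acta2 stood at 5355 and 5572 in inhibitor-treated MEF and 405 and 421 at day 1 after the inhibitor, Cdh1 at 0 and 0 in inhibitor-treated MEF and 13 and 13 at day 1 after the inhibitor and Pou5f1 at 0 and 0 in inhibitor-treated MEF and 3768 and 3846 at day 1 after the inhibitor.

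The 2 first-day changes were also compared directly. Of 13230 genes, 1052 (7.95%) differed in their change (limma, adjusted p under 0.05), 577 (4.36%) with a more positive and 475 (3.59%) with a more negative change in the control step. The count was 695 without the first control day 1 library, 642 with no filter on low values, 574 when only the MEF and day 1 groups of both steps entered the fit and 170 when that fit had the replicate block. A difference of at least 2-fold was found for 129 (0.975%) and 132 (0.998%) of the genes. At any size of difference, the test called 13 of 18 matrix proteases and inhibitors, 13 of 22 ATF4 genes and 8 of 18 collagen chains. It called 5 of 11 CCN and YAP, 5 of 24 cholesterol, 4 of 17 contractile and 0 of 12 fatty acid synthesis genes. Acta2 fell less in the control step (difference 0.93 ± 0.15 SE, limma adjusted p = 5.66e-04), as did Ankrd1 (1.71 ± 0.27 SE, limma adjusted p = 4.03e-04), and Ccnd1 rose more (0.67 ± 0.06 SE, limma adjusted p = 4.64e-07). The starting levels were not the same, Ankrd1 for example being at 156 and 159 in inhibitor-treated MEF against 206 and 217 in untreated MEF, and the part of the MEF levels in these differences was not tested. For Cdh1 the difference was -0.29 ± 0.13 SE, limma adjusted p = 0.234 and for Klf4 -0.11 ± 0.12 SE, limma adjusted p = 0.659.

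**Figure D5:**
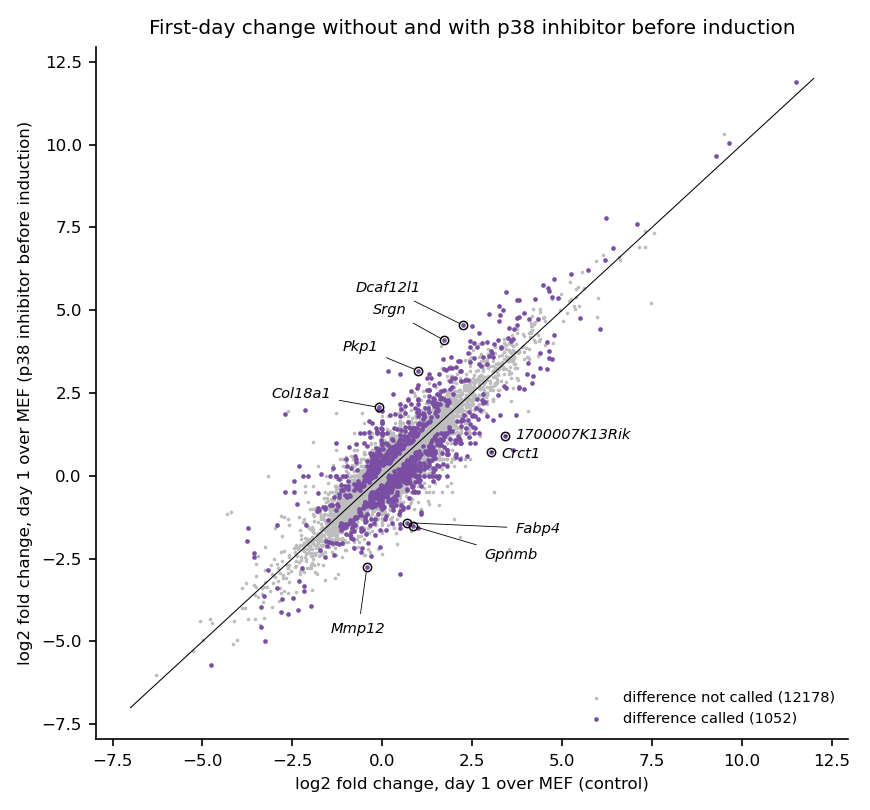
Log2 fold change of each of 13230 genes on the first day in the control step (x axis) and after p38 inhibitor before induction (y axis), with the line of equal change. Purple points are the 1052 genes whose change differed at an adjusted p under 0.05 in the fit over all groups (574 when only the MEF and day 1 groups of both steps entered the fit), and circles mark 9 genes among the largest called differences whose mean over these 8 libraries reached 5.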

How the data were processed

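Values of 28 RNA-seq libraries in 14 groups of 2 were used, grouped by the labels. The submitters' processing notes list bcl2fastq, Bowtie2 2.2.5, RSEM 1.3.0 and the builds mm10 and hg38. The authors deposited 1 score for each gene in each library. These scores are whole and total 991287 to 992537, and were therefore read as TPM rounded down by the authors. Depth is unknown, and no interval or floor was computed. Of the identifiers, 99.6% are in GENCODE M21 (GRCm38), and 27 names that had become dates were handled through their identifiers. Labels and paper name different kits and RNA extractions.

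On log2(value + 1), limma 3.58.1 (R 4.3.3; linear fit over all 14 groups, trended eBayes) tested the 13230 genes whose mean over the libraries reached 1, two-sided, with Benjamini-Hochberg adjustment and calls under 0.05. Rounding leaves many low genes with no spread between libraries, and 126 calls had group means 1 or less apart. A MEF to day 1 comparison of 13166 genes was simulated with 200 changed. Of those, 63.6% were called at a log2 change of 0.5 and 94% at 1, and 14 unchanged genes were called. Far fewer genes were changed there than the 7340 called in the control comparison. The 200 changed genes were drawn only from genes with higher values, so these results do not show how low, rounded genes would be called.

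The members, the 43 gene lists and the tests were chosen with earlier results of these data known. Named genes are the top 12 in each direction by log2 fold change (called, no overlap, mean of 5 or more over the 4 libraries); all members of lists of up to 10 and otherwise the top 6 in each direction among 2-fold calls with a mean of 5 or more in the higher group; genes the paper names; and the top 5 in each direction for the difference between first-day changes. Some genes that meet these rules are not reported here. Others were chosen after their values were seen, as were the promoter motifs and windows. BLAST 2.17.0 found genes of at least 95% identity over 200 bases. Deviations of same-numbered MEF and day 1 libraries correlated at -0.01, so replicate numbers were not used as pairs. Alternatives covered the pseudocount (0.1), the filter (none, or a mean of 5), quantile normalization, fits of only the groups compared, a replicate block, a 2-fold minimum and leaving out each library.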

Additional observations from a re-analysis of the deposited data

Results flagged for a closer look

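The first-day change differed between untreated and inhibitor-treated MEFs for 1052 genes by the test of the difference itself (limma, adjusted p under 0.05). This count was 695 without the first control day 1 library, 642 with no filter, 574 when only the MEF and day 1 groups of both steps entered the fit and 170 with the replicate block in that fit. Given here are 9 of the largest called differences among genes whose mean over these 8 libraries reached 5. Differences are the control change minus the change after inhibitor, on the log2(value + 1) scale.

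Of the genes with a more positive change in the control step, Gpnmb, a glycoprotein of macrophages and pigment cells, stood at 35 and 36 in MEF and 66 and 63 at day 1, against 120 and 115 in inhibitor-treated MEF and 42 and 39 at day 1 after the inhibitor (difference 2.36 ± 0.12 SE, limma adjusted p = 2.03e-10). Mmp12, the macrophage elastase, stood at 5 and 5 in MEF and 3 and 4 at day 1, against 14 and 11 in inhibitor-treated MEF and 1 and 1 at day 1 after the inhibitor (2.32 ± 0.29 SE, limma adjusted p = 3.41e-05). The fatty acid carrier gene Fabp4 was at 3 and 5 in MEF and 6 and 8 at day 1, against 7 and 7 in inhibitor-treated MEF and 2 and 2 at day 1 after the inhibitor (2.11 ± 0.41 SE, limma adjusted p = 0.00306). For these 3 genes both day 1 values after the inhibitor lay below both values of inhibitor-treated MEF, whereas in the control step Gpnmb rose and the other two were not called. The macrophage list summed to 244 and 248 in inhibitor-treated MEF and 122 and 116 at day 1 after the inhibitor, and its part in these differences was not tested. Crct1, of the cornified envelope, was at 5 and 6 in MEF and 57 and 47 at day 1, against 7 and 5 in inhibitor-treated MEF and 10 and 11 at day 1 after the inhibitor (2.30 ± 0.47 SE, limma adjusted p = 0.00450), and 1700007K13Rik at 2 and 0 in MEF and 15 and 20 at day 1, against 3 and 2 in inhibitor-treated MEF and 7 and 7 at day 1 after the inhibitor (2.20 ± 0.47 SE, limma adjusted p = 0.00590).

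Of those with a more negative change in the control step, Srgn, a proteoglycan of secretory granules, stood at 3 and 1 in MEF and 10 and 7 at day 1, against 0 and 0 in inhibitor-treated MEF and 16 and 16 at day 1 after the inhibitor (-2.36 ± 0.28 SE, limma adjusted p = 1.35e-05). Dcaf12l1 was at 3 and 3 in MEF and 17 and 19 at day 1, against 0 and 0 in inhibitor-treated MEF and 21 and 24 at day 1 after the inhibitor (-2.31 ± 0.12 SE, limma adjusted p = 3.46e-10), and Pkp1, a desmosomal plakophilin, at 6 and 5 in MEF and 13 and 11 at day 1, against 0 and 0 in inhibitor-treated MEF and 8 and 8 at day 1 after the inhibitor (-2.17 ± 0.15 SE, limma adjusted p = 1.02e-08). These 3 genes were higher at day 1 in both steps and listed at 0 in inhibitor-treated MEF, so the size of their difference depends on the pseudocount. Col18a1, a basement membrane collagen, was at 62 and 66 in MEF and 66 and 55 at day 1, against 13 and 12 in inhibitor-treated MEF and 53 and 58 at day 1 after the inhibitor (-2.15 ± 0.11 SE, limma adjusted p = 2.03e-10), so its day 1 levels were near each other and the MEF levels were not.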

How the results depend on the processing

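The control comparison called 7340 genes, and pseudocount, filters, the all-group block and the fit of only its groups kept this within 1.5 times. Quantile normalization gave 3751 lower genes in place of 2500. A 2-fold minimum gave 2677 (2037 higher, 640 lower), 2832 (2067 and 765) in the second set and 261 (129 and 132) for the difference. Leaving out 1 library gave 6430 to 6576 calls (4235 to 4532 higher, 2027 to 2204 lower), and 6375 to 6603 (4119 to 4276, 2236 to 2344) in the second set. Replicate numbers did not pair the libraries. The replicate block within only the groups compared gave 3749 (2477 and 1272), 4040 (2591 and 1449) and 170 (92 and 78), with 1 residual degree of freedom in the first and second. For the difference, no filter gave 642 (324 higher) and only the groups compared 574 (313 and 261). Leaving out 1 library gave 695 to 859 (332 to 460 higher, 313 to 405 lower), with 695 (332 higher) without the first control day 1 library, 313 lower without the second and 384 higher without the first inhibitor-treated MEF library. The causes were not tested, except that fewer libraries entered the smaller fits. Of 225 named genes called, 171 were called under every setting in which they were tested, and no named call changed sign. Unknown depth and rounding limit values under 5.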

Other observations

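Several groups outside the main account are described here beside the 36.6% of all genes that were higher and the 18.9% that were lower. The shares of glycolysis, hypoxia, NRF2 and clock genes that rose were near that of all genes and are not a result about these lists. Glycolysis genes rose in 7 of 19 and fell in 7. Of the glucose transporters, Slc2a1 went from 81 and 76 to 29 and 27 (log2 fold change -1.46 ± 0.09 SE, limma adjusted p = 2.06e-11) and Slc2a3 from 3 and 2 to 8 and 8 (log2 fold change 1.38 ± 0.17 SE, limma adjusted p = 8.25e-07), and the kinase Pfkp rose from 31 and 35 to 114 and 105 (log2 fold change 1.70 ± 0.08 SE, limma adjusted p = 5.10e-13). Hypoxia genes rose in 5 of 14 and fell in 6, with Vegfa, the angiogenic growth factor, at 57 and 62 in MEF and 26 and 28 at day 1 (log2 fold change -1.11 ± 0.14 SE, limma adjusted p = 9.92e-07) and Kdm3a, a histone demethylase, at 10 and 15 in MEF and 27 and 31 at day 1 (log2 fold change 1.17 ± 0.15 SE, limma adjusted p = 2.08e-06). Metal and NRF2 genes rose in 5 of 13 and fell in 4. Metallothioneins Mt1 and Mt2 went from 219 and 258 to 614 and 652 and from 101 and 109 to 387 and 358, while Nqo1, a quinone reductase and NRF2 target, went from 236 and 234 to 98 and 105 (log2 fold change -1.20 ± 0.07 SE, limma adjusted p = 2.14e-11).

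Of 9 glucocorticoid-responsive genes 2 rose and 4 fell. Glul, glutamine synthetase, went from 39 and 36 to 175 and 173 (log2 fold change 2.19 ± 0.07 SE, limma adjusted p = 3.34e-16), whereas the kinase Sgk1 went from 142 and 140 to 32 and 33 (log2 fold change -2.08 ± 0.11 SE, limma adjusted p = 1.65e-12). Clock genes rose in 6 of 15 and fell in 1, and after quantile normalization 4 rose and 3 fell. Among DNA methylation enzymes 3 of 7 rose and 2 fell. Tet2, which oxidises methylcytosine, went from 1 and 2 to 11 and 11 (log2 fold change 2.29 ± 0.19 SE, limma adjusted p = 4.10e-09), and Dnmt1, the maintenance methyltransferase, called higher at 63 and 63 in MEF and 74 and 69 at day 1, lost its call without the first day 1 library (0.13, limma adjusted p = 0.203) or without either MEF library. Retrovirus restriction genes rose in 7 of 11 and fell in 2, with Zfp809, which recruits silencing to proviruses, at 12 and 13 in MEF and 32 and 33 at day 1 (log2 fold change 1.31 ± 0.10 SE, limma adjusted p = 1.62e-09) and Trim28, its co-repressor, at 270 and 263 in MEF and 211 and 197 at day 1 (log2 fold change -0.38 ± 0.06 SE, limma adjusted p = 1.36e-05). The proliferin genes Prl2c2 and Prl2c3, near-identical copies whose reads may be shared, rose from 15 and 8 to 61 and 70 and from 18 and 16 to 60 and 69.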
